A study of Mus musculus with 12 samples.

Results

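The genes described here are 30 genes of cholesterol and fatty acid synthesis in 4T1, a triple-negative breast cancer line that came from a BALB/c mouse. They were chosen by gene symbol, by a rule that uses no measured value but was drawn up with earlier results of these data known. They make up 30 of the 40406 gene entries of the count table and 30 of the 15538 genes tested. All 30 passed the filter on low counts. They fall into a sterol arm of 18 enzymes, a set of 5 regulators and transport genes, and a fatty acid arm of 7 enzymes, which are given apart. Cells labelled integrin β3 wild type (WT) or integrin β3 knockout (KO) were kept for 24 h in either the solvent DMSO or 10 nM docetaxel (DTX), a taxane that stabilises microtubules. All 4 groups then had 48 h in fresh medium with no drug before harvest. There were 3 libraries in each group, from cultures that the labels call a biological triplicate, and n = 3 libraries for every group mean given here. The p-values measure the spread between these cultures of a single cell line. The sources used here do not say how the knockout was made or whether it is 1 clone.

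Cholesterol and fatty acids are both built from cytosolic acetyl-CoA. ATP citrate lyase (Acly) makes acetyl-CoA from citrate, the mevalonate pathway turns it into isoprenoid units and squalene, and later enzymes close and trim the sterol ring. Transcription of most of these genes is driven by the SREBP factors, products of Srebf1 and Srebf2. These factors are held in the endoplasmic reticulum by the INSIG proteins when sterols are plentiful and are released and cut when sterols fall. Srebf2 acts mainly on sterol genes and Srebf1 mainly on fatty acid genes, and carcinoma cells often make their own fatty acids.

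Promoters are shown because most of the members are classic targets of 1 family of factors. RefSeq promoter windows on GRCm38.p6, from 250 bases before to 50 bases after the annotated start, were found for 24 of the 30 genes (32 windows), and Fdps, Fdft1, Sqle, Stard4, Scd1 and Scd2 had none. The letters TCACNCCAC, a form of the sterol regulatory element, occurred on either strand in 1 of the 32 windows (3.12%), that of Hmgcs1, against 1.24% of all 32851 windows. CCAAT, the letters bound by NF-Y, occurred in 22 of the 32 (68.8%), against 37.4% of all windows. CACGTG, an E-box, occurred in 4 (12.5%), those of Hsd17b7, Sc5d, Dhcr7 and Insig1, against 7.15%. The windows below are those of Hsd17b7 (chr1:169969156-169969455, minus strand), Fasn (chr11:120824498-120824797, minus strand), Srebf1 (chr11:60222532-60222831, minus strand, the first of its 3 windows) and Insig1 (chr5:28071162-28071461, plus strand), the genes with the smallest adjusted p for docetaxel that had a window. Hmgcs1 (chr13:119690101-119690400, plus strand) was added, after the search, as the only window with the sterol element letters. Each is written 5′ to 3′ on the gene's strand, with matches to any of the 3 motifs on either strand in capitals.
Hsd17b7: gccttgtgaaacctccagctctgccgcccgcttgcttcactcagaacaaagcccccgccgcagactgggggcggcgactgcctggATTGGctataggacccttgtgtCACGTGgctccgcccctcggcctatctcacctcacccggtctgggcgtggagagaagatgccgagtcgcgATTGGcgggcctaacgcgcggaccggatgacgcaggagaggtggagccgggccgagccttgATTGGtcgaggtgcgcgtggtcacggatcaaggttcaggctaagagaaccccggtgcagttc
Fasn: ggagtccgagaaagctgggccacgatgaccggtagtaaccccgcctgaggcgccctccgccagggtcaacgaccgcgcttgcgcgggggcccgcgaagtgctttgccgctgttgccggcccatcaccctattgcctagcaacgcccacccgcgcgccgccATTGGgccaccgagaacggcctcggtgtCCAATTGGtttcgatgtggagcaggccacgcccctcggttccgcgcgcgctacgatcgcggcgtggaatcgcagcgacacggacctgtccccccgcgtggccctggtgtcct
Srebf1: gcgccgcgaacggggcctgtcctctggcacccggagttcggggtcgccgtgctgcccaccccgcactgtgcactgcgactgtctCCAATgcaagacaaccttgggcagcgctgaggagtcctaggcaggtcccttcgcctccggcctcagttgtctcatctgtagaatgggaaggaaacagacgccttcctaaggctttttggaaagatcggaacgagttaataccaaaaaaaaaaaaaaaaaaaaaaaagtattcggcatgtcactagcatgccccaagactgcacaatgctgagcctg
Insig1: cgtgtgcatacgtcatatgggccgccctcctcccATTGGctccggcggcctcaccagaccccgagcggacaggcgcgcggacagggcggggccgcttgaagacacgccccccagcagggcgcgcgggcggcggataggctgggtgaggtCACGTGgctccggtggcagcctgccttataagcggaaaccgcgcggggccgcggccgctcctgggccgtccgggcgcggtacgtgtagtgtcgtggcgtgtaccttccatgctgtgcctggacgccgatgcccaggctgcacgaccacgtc
Hmgcs1: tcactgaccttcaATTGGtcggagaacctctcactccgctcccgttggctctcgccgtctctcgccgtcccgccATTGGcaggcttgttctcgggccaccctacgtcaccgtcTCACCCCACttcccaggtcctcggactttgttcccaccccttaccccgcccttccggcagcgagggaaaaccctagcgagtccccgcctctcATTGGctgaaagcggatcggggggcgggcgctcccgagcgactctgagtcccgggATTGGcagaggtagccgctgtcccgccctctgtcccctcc
The match in Hmgcs1 starts 137 bases before the annotated start, on the gene's own strand. The E-box letters start 143 bases before the start in Hsd17b7 and 101 bases before it in Insig1. A match is a description of the sequence and not of binding, and in Fasn a CCAAT match on 1 strand overlaps a match on the other, where the capitals run together. CACGTG reads the same on both strands.

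Total gene counts were 28.7 to 40.8 M (M, mega-counts) per library. Itgb3, which encodes integrin β3, stood at 60.1 to 71.4 CPM (read counts scaled to a common library total, with TMM-scaled library sizes) in WT-DMSO and 62.4 to 66.7 CPM in KO-DMSO, which differed by −0.03 ± 0.08 on the log2 scale (SE; edgeR adjusted p = 0.874). In the docetaxel groups it stood at 80 to 88.7 CPM in WT-DTX and 59.3 to 64.6 CPM in KO-DTX, lower in the knockout-labelled cells with no overlap (log2 −0.41 ± 0.08; edgeR adjusted p = 0.00765). Because the transcript was not reduced under DMSO, the KO cells are called knockout-labelled below, and the direction of each genotype comparison is that of the labels. The free-text description of WT-DMSO library 1 speaks of knockout cells, but the title and genotype label, which were followed here, give wild type. Over 81 genes called between the genotypes in the docetaxel groups, chosen after seeing the data, the mean signed log2 deviation of that library was −0.707. The fit and the filter that gave these genes used all 12 libraries, so this check is not independent of that library. The other WT-DMSO libraries were at −0.741 and −0.849 and the KO-DMSO libraries at 0.725 to 0.801. The 6 epithelial markers Epcam, Cdh1, Krt8, Krt18, Krt19 and Cldn4 stood at 86.1 to 1000 CPM. Their sum was 2770 to 3520 CPM in WT-DMSO, 2490 to 3040 in WT-DTX, 3440 to 3650 in KO-DMSO and 2640 to 3350 in KO-DTX. The 5 fibroblast markers summed to 28.3 to 30.6, 19.4 to 21.1, 14.8 to 18.6 and 12 to 14.5 CPM in the same order, ranges that did not overlap. Nearly all of this was Pdgfra (11 to 29.7 CPM), with Col1a1 at 0.506 to 1.99 CPM, Col1a2 at up to 0.226, Dcn at up to 0.0688 and Lum at 0 in every library. The 5 leukocyte markers summed to 19.3 to 37.3, 23.3 to 30.8, 16.9 to 26.6 and 22.9 to 32.4 CPM. Of these, Cd68 was at 13 to 32.9 CPM, Csf1r at 1.65 to 3.48, Cd3e at 1.34 to 4.23, and Ptprc and Adgre1 at up to 0.252 and 0.0651. The 3 endothelial markers Pecam1, Cdh5 and Kdr summed to 0.103 to 0.27, 0.311 to 0.654, 0.163 to 0.323 and 0.288 to 0.548 CPM. The 5 adipocyte markers summed to 0.135 to 0.241, 0.649 to 0.843, 0 to 0.176 and 0.251 to 0.503 CPM, most of it Fabp4 (up to 0.787 CPM), while Adipoq, Plin1, Lep and Cidec each stayed below 0.1 CPM. The part of these markers in the results was not tested.

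All 30 genes were expressed in all 12 libraries. On a scale that compares genes, mean CPM per kilobase of annotated exon over the 12 libraries, the highest were Scd2, a stearoyl-CoA desaturase that makes monounsaturated fatty acids, at 254, Fasn, the fatty acid synthase, at 92.5, and Acly at 60.3. Insig1 (46), the cytosolic HMG-CoA synthase gene Hmgcs1 (45.7), Scd1 (45.5) and Srebf2 (43.3) came next, and these 4 lay close together against the spread of Hmgcs1 in WT-DMSO (38.4 ± 11.1 CPM per kilobase, SD). The lowest were Hsd17b7, a sterol ketone reductase, at 5.03, Lss, which closes the sterol ring, at 4.9, and Tm7sf2, a sterol reductase, at 3.23 CPM per kilobase. Srebf1, at 17.9, was below Srebf2. In every group Scd2 was the highest, at 205 ± 16.2 to 320 ± 22.4 CPM per kilobase. Scd1 and Scd2 are close copies, so reads shared between them could have been split or lost in the counting, and their values are uncertain to that extent.

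The WT-DMSO libraries differed from each other in the sterol arm, and every comparison with that group rests on them. The summed level of the 18 sterol genes was 1736, 1345 and 1127 CPM in WT-DMSO libraries 1, 2 and 3 and 1752, 1656 and 1659 CPM in the WT-DTX libraries. It was 1687, 1431 and 1619 CPM in KO-DMSO and 1603, 1380 and 1470 CPM in KO-DTX. Library 1 of WT-DMSO lay among the WT-DTX libraries, while libraries 2 and 3 lay below every other library of the study. The spread was shared by most genes: library 1 was the highest of its group for 16 of the 18 sterol genes, and library 3 was the lowest for 13. Library 1 was at or above the lowest WT-DTX library for 14 of the 18, library 2 for 4 and library 3 for 2. The median coefficient of variation of the 30 genes in WT-DMSO was 21.2%, against 11.3% for the 9035 genes with a mean of at least 10 CPM. It was 5.30% against 6.27% in WT-DTX, 7.86% against 5.33% in KO-DMSO and 7.76% against 8.92% in KO-DTX. In KO-DMSO, library 2 was the lowest for 17 of the 18 sterol genes. Library 1 was also the highest of its group in the other groups for most of the 18. It was so for 12 in WT-DTX, 14 in KO-DMSO and 12 in KO-DTX. The noncoding feature Gm23935 took 1.62%, 3.98% and 0.435% of the counts of WT-DMSO libraries 1, 2 and 3, and Gm26917 took 7.57%, 7.07% and 11.5%. Whether these features had a part in the spread was not tested. In bulk RNA, fewer cells with a high level and a lower level in each cell cannot be told apart.

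**Figure D1:**
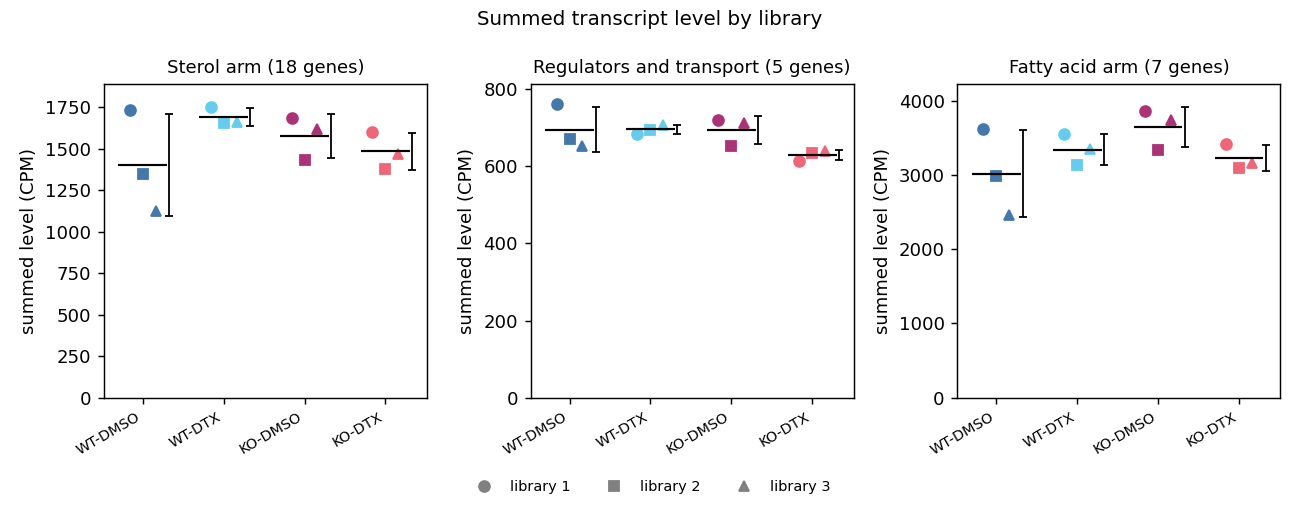
Summed transcript level of the sterol, regulator and fatty acid genes (CPM, y axis) by group (x axis). Each symbol is 1 library, lines are group means and bars are ± SD over 3 libraries. WT-DMSO spans 1127 to 1736 CPM in the sterol arm, and its library 1 lies beside the WT-DTX libraries.

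The fatty acid arm, dominated by Fasn and Scd2, summed to 3623, 2983 and 2456 CPM in WT-DMSO and to 3550, 3131 and 3351 CPM in WT-DTX. It summed to 3857, 3338 and 3743 CPM in KO-DMSO and to 3421, 3091 and 3163 CPM in KO-DTX. Without Fasn and Scd2 the remaining 5 genes summed to 728 to 948 CPM in WT-DMSO, 928 to 1006 CPM in WT-DTX, 844 to 945 CPM in KO-DMSO and 886 to 997 CPM in KO-DTX. The 5 regulators and transport genes summed to 653 to 761 CPM in WT-DMSO and to 685 to 708, 653 to 720 and 614 to 639 CPM in WT-DTX, KO-DMSO and KO-DTX. The KO-DTX sums of this set lay below those of the other 9 libraries.

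**Figure D2:**
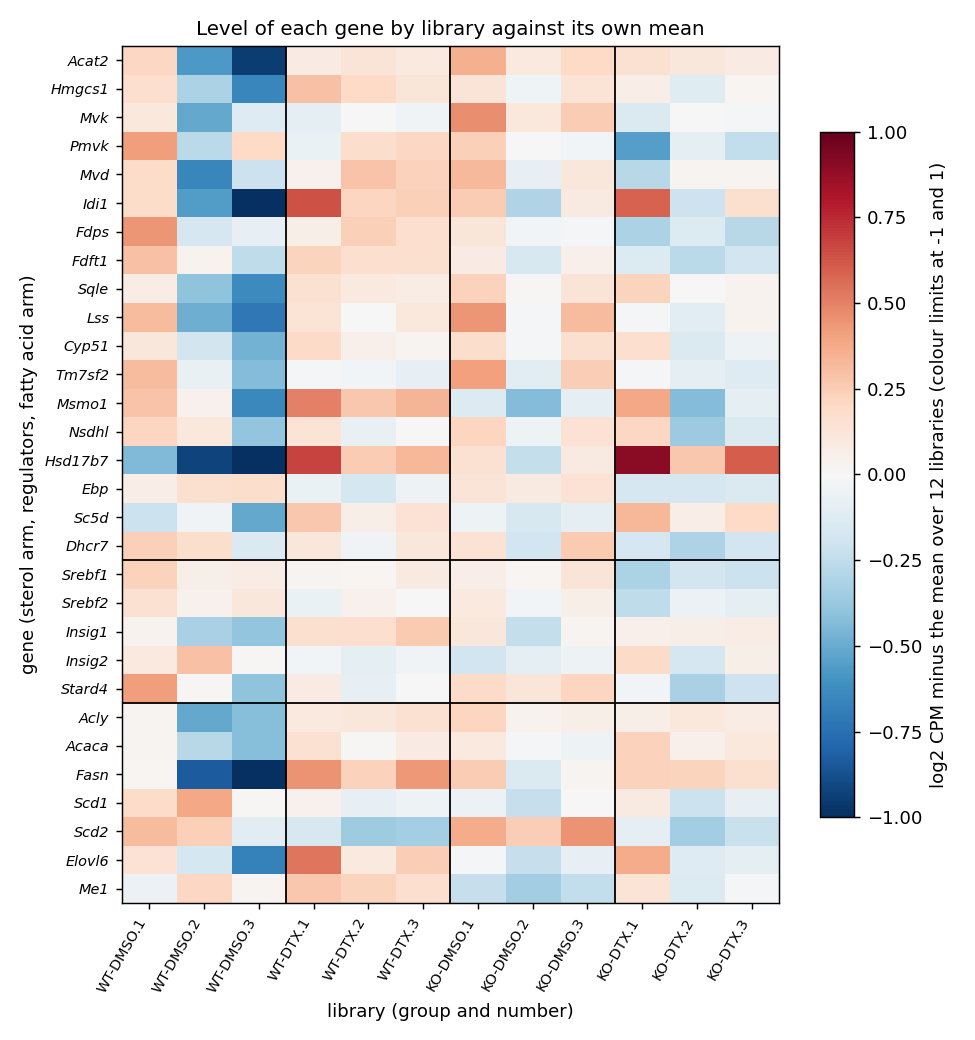
Level of each gene (rows, by arm) in each library (columns) as log2 CPM minus the gene's mean over the 12 libraries. Red is above and blue below that mean, and colours stop at −1 and 1. WT-DMSO libraries 2 and 3 are blue over most of the sterol arm, and library 1 is not.

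After docetaxel, 9 of the 30 genes were higher and 2 lower in wild-type cells at an edgeR adjusted p under 0.05. This is 30% higher and 6.67% lower, against 14.5% and 13.8% of all tested genes. Genes that rose were Hmgcs1, Idi1, Sqle, Hsd17b7 and Sc5d of the sterol arm, Insig1 of the regulators, and Acly, Acaca and Fasn of the fatty acid arm. Ebp, a sterol isomerase, and Scd2 fell. The groups did not overlap for 7 genes with higher levels and 4 with lower levels, 11 of 30, while 40.5% of all tested genes had no overlap. The median log2 fold change was 0.28 over the sterol arm, −0.08 over the regulators and 0.30 over the fatty acid arm, and 0.02 over all tested genes. In the sterol arm, 14 of 18 fold changes were positive, as were those of 8000 of all 15538 tested genes. The 18 genes share the same libraries, so their fold changes are not independent observations. Without WT-DMSO libraries 1, 2 and 3 the count of positive sterol genes was 17, 13 and 12.

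In the mevalonate steps, Hmgcs1, which condenses acetyl-CoA units into HMG-CoA, was at 232, 166 and 132 CPM in WT-DMSO and 253, 238 and 226 CPM in WT-DTX. Library 1 of WT-DMSO lay within the WT-DTX range, and the log2 fold change was 0.44 ± 0.15 (SE; edgeR adjusted p = 0.0433). Idi1, the isomerase that forms the active isoprenoid unit, was at 40.9, 24.5 and 14.7 CPM and then at 56.1, 41.8 and 42.6 CPM. The groups were apart by less than 1 CPM, and the log2 fold change was 0.81 ± 0.29 (edgeR adjusted p = 0.0491). Mvk, mevalonate kinase, was at 27.7, 18.1 and 23.5 CPM against 24.3, 25.7 and 25.1 CPM, and did not pass the test (log2 0.11 ± 0.14; edgeR adjusted p = 0.564). Acat2, Pmvk, Mvd and Fdps, which make acetoacetyl-CoA, phosphorylate and decarboxylate mevalonate and join isoprenoid units, did not pass either. Their log2 fold changes were 0.46, −0.03, 0.38 and 0.07.

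From squalene on, Sqle, squalene epoxidase, rose from 123 ± 31.8 to 163 ± 4.28 CPM (SD; log2 0.40 ± 0.14 SE; edgeR adjusted p = 0.0448). Its WT-DMSO library 1, at 158.7 CPM, lay just under the lowest docetaxel library, at 159.1 CPM. Hsd17b7 had the largest change of the 30 genes. It was at 17.1, 12.2 and 7.23 CPM in WT-DMSO and at 37.2, 27.7 and 29.3 CPM in WT-DTX, so the lowest docetaxel library was well above the highest DMSO library. The ratio was 2.58-fold (log2 1.37 ± 0.24; edgeR adjusted p = 0.00122). Sc5d, a sterol desaturase of the late pathway, was at 83.9, 94.9 and 67.9 CPM and then at 117, 101 and 107 CPM. These groups did not overlap, and the log2 fold change was 0.40 ± 0.11 (edgeR adjusted p = 0.0162). Ebp fell from 58.1 ± 2.29 to 49.5 ± 2.24 CPM (log2 −0.23 ± 0.07; edgeR adjusted p = 0.0271). The other 7 enzymes from squalene synthase on (Fdft1, Lss, Cyp51, Tm7sf2, Msmo1, Nsdhl and Dhcr7) did not pass, with log2 fold changes from −0.03 for Dhcr7 to 0.43 for Msmo1.

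Insig1, whose product holds SREBP back and which is itself a target of SREBP, was at 144, 113 and 107 CPM in WT-DMSO and at 158, 159 and 169 CPM in WT-DTX. All docetaxel libraries lay above all DMSO libraries (log2 0.42 ± 0.11; edgeR adjusted p = 0.013). Insig2, its paralog, was at 45.4 ± 4.67 and 39.8 ± 1.04 CPM and did not pass (log2 −0.19 ± 0.10; edgeR adjusted p = 0.177). Stard4, a cytosolic sterol carrier, was at 85.4 ± 23.9 and 82.6 ± 4.77 CPM (edgeR adjusted p = 0.843). The SREBP genes themselves, Srebf1 at 109 ± 7.19 and 103 ± 2.77 CPM and Srebf2 at 334 ± 13.2 and 309 ± 11.1 CPM, did not pass (edgeR adjusted p = 0.482 and 0.307).

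In the fatty acid arm, Fasn was at 983, 545 and 467 CPM in WT-DMSO and at 1322, 1140 and 1311 CPM in WT-DTX. All 3 docetaxel libraries exceeded all 3 DMSO libraries, by 1.89-fold on the fitted scale (log2 0.92 ± 0.21; edgeR adjusted p = 0.00497). Acly was at 322, 221 and 234 CPM and then at 336, 340 and 350 CPM, with WT-DMSO library 1 just under the docetaxel range (log2 0.40 ± 0.12; edgeR adjusted p = 0.019). Acaca, which makes malonyl-CoA, rose from 181 ± 29.6 to 222 ± 10.7 CPM (log2 0.29 ± 0.10; edgeR adjusted p = 0.048). Its groups overlapped, with WT-DMSO library 1 at 213.4 CPM and the lowest docetaxel library at 211 CPM. Scd2 moved the other way: it was at 1692, 1607 and 1262 CPM in WT-DMSO and at 1222, 1063 and 1076 CPM in WT-DTX. The groups did not overlap, although WT-DMSO library 3 came close to the highest docetaxel library (log2 −0.44 ± 0.12; edgeR adjusted p = 0.0118). Scd1 was at 255 ± 33.3 and 217 ± 9.84 CPM (edgeR adjusted p = 0.118), the fatty acid elongase gene Elovl6 at 92.3 ± 25.5 and 131 ± 20.4 CPM (edgeR adjusted p = 0.0534), and Me1, malic enzyme, a source of NADPH, at 48.8 ± 4.58 and 54.4 ± 1.87 CPM (edgeR adjusted p = 0.223).

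**Figure D3:**
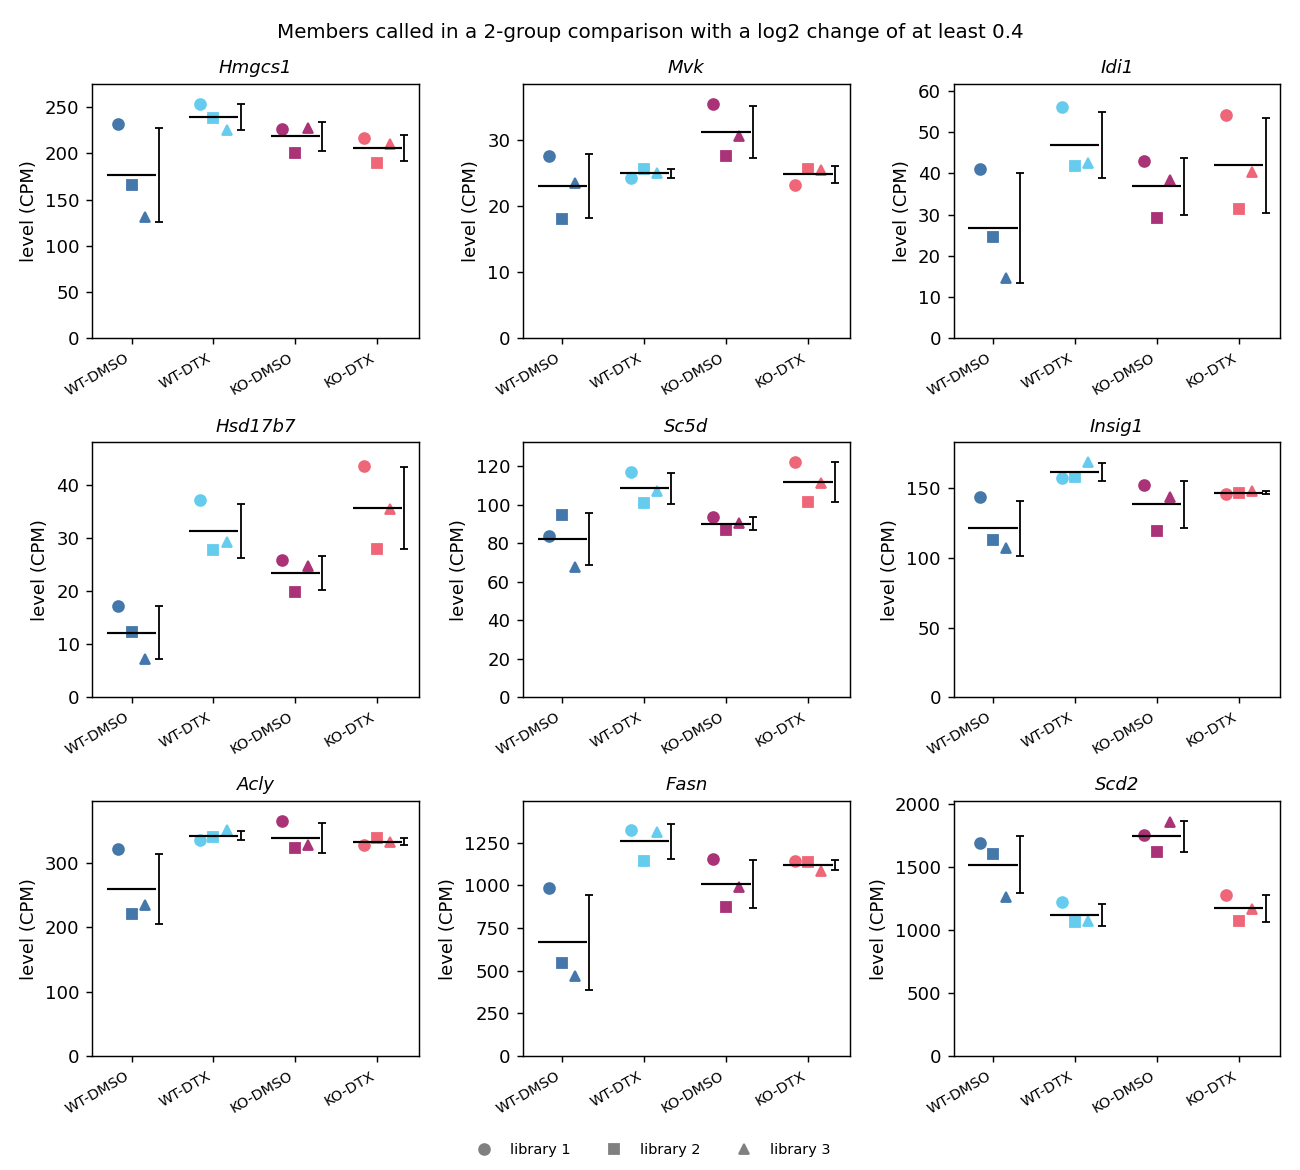
Level (CPM, y axis, from 0) of the 9 genes called in a comparison of 2 groups with a log2 change of at least 0.4, by group (x axis). Symbols are libraries 1, 2 and 3, lines are means and bars are ± SD. Hsd17b7 and Fasn are apart in WT-DMSO and WT-DTX, and WT-DMSO library 1 is the highest of its group in 8 of the 9 genes, all but Sc5d.

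Which genes passed depended on single libraries. With WT-DMSO library 1 left out, 16 of the 30 genes were called higher, 11 of them sterol genes, and Acat2 (log2 0.85), Lss (0.68), Mvd (0.60), Msmo1 (0.64), Cyp51 (0.41), Fdps (0.28) and Elovl6 (0.71) were added. With library 2 left out 4 were called higher, and with library 3 left out 2. Of all tested genes, 15.1%, 11.6% and 10.9% were called higher in these fits. The median log2 fold change of the sterol arm was 0.41, 0.19 and 0.12 in these 3 fits. Without each WT-DTX library the count was 4, 6 and 3, and without each KO-DMSO library, which are in neither group compared, it was 5. Without KO-DTX libraries 1, 2 and 3 it was 10, 7 and 5. Of all tested genes 10.3%, 11.2% and 9.91% were called higher without WT-DTX libraries 1, 2 and 3. The shares were 13.3%, 13% and 12.9% without the KO-DMSO libraries and 15.3%, 14.3% and 12.7% without the KO-DTX libraries. Hsd17b7 (log2 1.10 to 1.69, highest edgeR adjusted p = 0.00872) and Fasn (log2 0.72 to 1.31, highest edgeR adjusted p = 0.0341) passed in all 23 alternative fits. Insig1 lost its call without WT-DMSO library 3 or WT-DTX library 3 (adjusted p up to 0.0703), Sc5d without WT-DMSO library 3 or WT-DTX library 1 (up to 0.0714), and Acly without WT-DMSO library 2 or 3 or WT-DTX library 3 (up to 0.11). Scd2 lost it without WT-DTX library 3 (up to 0.0575) and Ebp without WT-DMSO library 2 or 3 or any WT-DTX library (up to 0.187). Hmgcs1, Idi1, Sqle and Acaca, close to the threshold, lost theirs without WT-DMSO library 2 or 3 or any WT-DTX library. They also lost them without any KO-DMSO library or KO-DTX library 3 (up to 0.193), and Sqle and Acaca without KO-DTX library 2. With every library kept, Hmgcs1, Idi1, Sqle and Acaca lost their calls under upper-quartile scaling. Idi1 and Acaca also lost theirs under RLE scaling, and Idi1 with DESeq2. With the 2 libraries richest in Gm23935 left out, of the 11 calls only those of Hsd17b7, Fasn and Sc5d held, and with only the 6 libraries compared in the fit Hmgcs1, Idi1, Sqle, Acly, Acaca and Ebp lost theirs. No fold change of a called gene changed sign in any alternative.

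**Figure D4:**
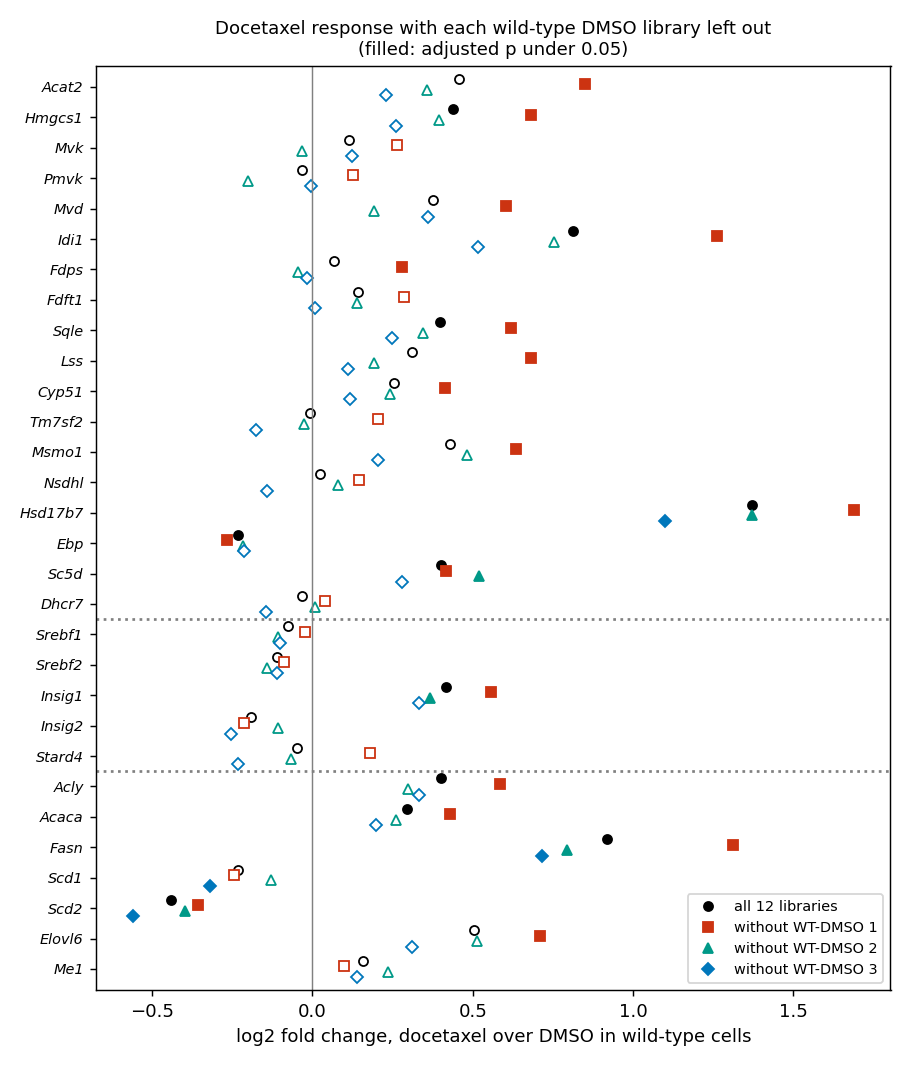
Log2 fold change of each gene for docetaxel in wild-type cells (x axis) from all 12 libraries and with each WT-DMSO library left out. Filled symbols passed an edgeR adjusted p of 0.05. Without library 1, 16 genes are called higher, and without library 3, 2 genes are.

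After docetaxel in knockout-labelled cells, no gene was called higher and 3 were called lower: Ebp, Srebf1 and Scd2. This is 10% of the 30 genes lower, against 9.09% of all tested genes called higher and 7.0% called lower. At an unadjusted p under 0.05, 3 genes (10%) were higher and 8 (26.7%) lower, against 16.3% and 14.2% of all tested genes. DESeq2 called 1 gene higher and limma-voom 0. The groups did not overlap for 3 genes with higher levels and 8 with lower levels, against 37.7% of all tested genes in either direction. The median log2 fold change was −0.19 over the sterol arm, −0.18 over the regulators and 0.12 over the fatty acid arm, and 0.00 over all tested genes.

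Scd2 was at 1758, 1619 and 1863 CPM in KO-DMSO and at 1283, 1071 and 1166 CPM in KO-DTX. Each docetaxel library was below each DMSO library (log2 −0.57 ± 0.12; edgeR adjusted p = 0.00428), and the call held in all 23 alternatives. Srebf1 was at 105, 102 and 110 CPM and then at 80.5, 88.3 and 86.5 CPM (log2 −0.31 ± 0.08; edgeR adjusted p = 0.0125). These groups did not overlap, and the call was lost without KO-DMSO library 3 and with a correction for GC content (adjusted p up to 0.093). Ebp was at 57.7, 56.3 and 58.6 CPM and then at 47.2, 47.2 and 47.8 CPM (log2 −0.28 ± 0.07; edgeR adjusted p = 0.017). It lost its call without any 1 of the KO-DMSO libraries or KO-DTX library 3, without the 2 libraries richest in Gm23935 and with no filter on low counts (up to 0.1). Without KO-DMSO library 3, 1 gene was called lower, and without library 1, or KO-DTX library 3, 2 genes were. Without WT-DMSO library 1 the count was 5, and 2 genes were then called higher. Without KO-DTX library 2, 3 genes were called higher. Of all tested genes 3.7%, 4.84% and 3.73% were called lower without KO-DMSO library 3, KO-DMSO library 1 and KO-DTX library 3. Without WT-DMSO library 1, 7.98% of them were called lower and 9.87% higher. The share called higher without KO-DTX library 2 was 9.88%.

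The genes that rose in wild-type cells had the following values here. Hsd17b7 was at 25.9, 19.7 and 24.7 CPM in KO-DMSO and at 43.5, 28 and 35.5 CPM in KO-DTX, with no overlap (log2 0.61 ± 0.24; edgeR adjusted p = 0.0965). Sc5d was at 93.7, 86.7 and 90.6 CPM and then at 122, 101 and 112 CPM, also apart (log2 0.31 ± 0.11; edgeR adjusted p = 0.0769). Fasn was at 1154, 875 and 990 CPM and then at 1141, 1134 and 1086 CPM, within the DMSO range (log2 0.15 ± 0.21; edgeR adjusted p = 0.659). Hmgcs1 was at 227, 200 and 228 CPM and at 217, 190 and 210 CPM, and Idi1 at 42.9, 29.2 and 38.3 CPM and at 54.2, 31.2 and 40.3 CPM, both overlapping. Insig1, at 152, 120 and 144 CPM under DMSO, was at 146, 146 and 148 CPM after docetaxel, and Acly, at 365, 322 and 328 CPM, was at 328, 339 and 332 CPM. The early enzymes Mvk (log2 −0.33) and Pmvk (−0.36), and Dhcr7, the reductase of the last step (−0.31), had negative fold changes that did not pass (edgeR adjusted p = 0.106, 0.141 and 0.0972). Me1 was at 38.7 ± 1.67 and 46.7 ± 4.42 CPM (edgeR adjusted p = 0.0593).

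**Figure D5:**
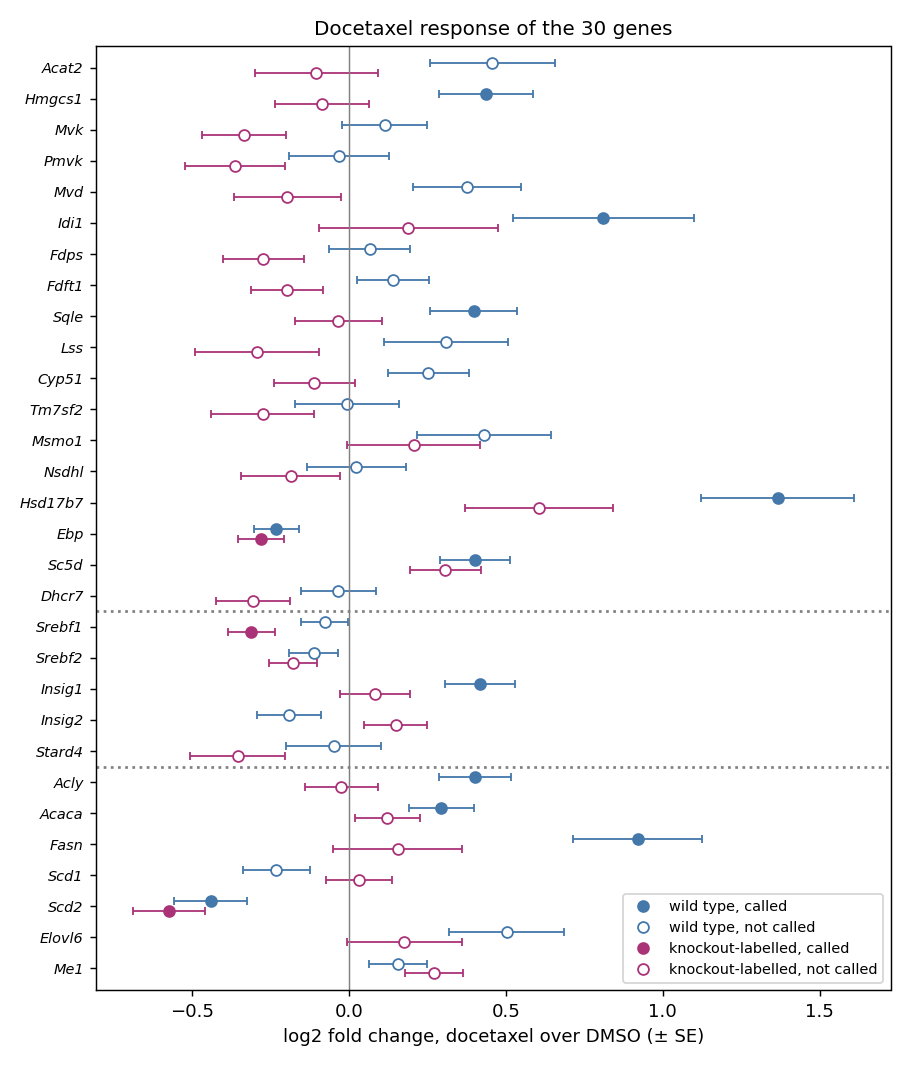
Log2 fold change for docetaxel over DMSO (x axis) of each gene in wild-type and knockout-labelled cells, with bars of ± SE from edgeR. Filled symbols passed an adjusted p of 0.05. With all libraries in the fit, the wild-type value of all 18 sterol genes lies to the right of the knockout-labelled value. Scd2 and Ebp lie left of 0 in both.

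The interaction of genotype and docetaxel, which tests whether the fold changes of the 2 genotypes differ, called 0 of the 30 genes in either direction (edgeR; DESeq2 and limma-voom also 0). Of all tested genes it called 0.0901% positive and 0.0193% negative. The estimate was negative, meaning a lower docetaxel fold change in knockout-labelled cells, for 27 of the 30 genes, and the median was −0.35 over the sterol arm, −0.24 over the regulators and −0.17 over the fatty acid arm. Of the 15538 tested genes 7786 had a negative estimate. Without WT-DMSO library 3, 2 of the 18 sterol estimates were positive, against 0 with all libraries, and the sterol median was −0.27. Without WT-DMSO library 1 the sterol median was −0.54. The genes share the same libraries, so the 27 are not independent observations. At an unadjusted p under 0.05 there were 9 negative genes (30%) and 1 positive (3.33%), Insig2, against 4.92% and 6.11% of all tested genes. The smallest adjusted p was 0.379, for Fasn (log2 −0.77 ± 0.29). Without WT-DMSO library 1, 7 genes passed: Fasn (−1.16, edgeR adjusted p = 0.0066), Acat2 (−0.96, 0.00876), Lss (−0.98, 0.0122), Acly (−0.61, 0.0136), Hmgcs1 (−0.77, 0.0184), Sqle (−0.66, 0.0237) and Fdps (−0.55, 0.0306). In that fit 221 of all 15969 tested genes were called negative (1.38%) and 210 positive (1.32%), where 3 and 14 were called with all libraries. Without any other library none of the 30 genes passed. With no filter on low counts 6 of the 30 passed, all negative, while 164 of all 28365 genes were called negative (0.578%) and 257 positive (0.906%). The genes called in wild-type cells and not in knockout-labelled cells are therefore not shown to differ in their response with all libraries in the fit.

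In knockout-labelled cells Mvk, Hsd17b7 and Acly were higher and Me1 was lower than in wild-type cells, all under DMSO. This is 10% of the 30 genes higher and 3.33% lower, against 6.60% and 9.20% of all tested genes. The groups did not overlap for 2 genes with higher levels and 3 with lower levels, against 32.6% of all tested genes in either direction. This comparison shares the WT-DMSO libraries with that of docetaxel in wild-type cells, so values high in 1 are set against the same 3 libraries in the other. Mvk was at 35.6, 27.7 and 30.7 CPM in KO-DMSO, and its lowest library lay just under the highest WT-DMSO library, so the groups overlapped at that edge (log2 0.44 ± 0.14; edgeR adjusted p = 0.0402). Hsd17b7 was higher in all 3 KO-DMSO libraries than in any WT-DMSO library (log2 0.95 ± 0.24; edgeR adjusted p = 0.0175), and so was Acly, by less than 1 CPM at the nearest pair (log2 0.39 ± 0.12; edgeR adjusted p = 0.0362). Me1 was at 39.8, 36.7 and 39.4 CPM against 44.8, 53.8 and 47.7 CPM, with no overlap (log2 −0.34 ± 0.09; edgeR adjusted p = 0.0249). Fasn (log2 0.60; edgeR adjusted p = 0.0638), Acat2 (0.58; 0.0642), Sqle (0.42; 0.0561) and Scd1 (−0.30; 0.0706) missed the threshold.

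With WT-DMSO library 1 left out, 13 genes were called higher, 9 of them in the sterol arm. Without library 2 none was, and without library 3 only 1 was. Of all tested genes, 9.35%, 3.57% and 4.52% were called higher in these fits. Without KO-DMSO libraries 1, 2 and 3 the counts were 0, 2 and 0. Without WT-DTX libraries 1, 2 and 3 they were 2, 1 and 1, and without KO-DTX library 3, 1. Of all tested genes 2.88%, 4.19% and 3.79% were called higher without KO-DMSO libraries 1, 2 and 3. The shares were 5.79%, 5.5% and 5.09% without the WT-DTX libraries and 5.07% without KO-DTX library 3. The call of Hsd17b7 was lost without WT-DMSO library 2 or KO-DMSO library 1 or 3 (adjusted p up to 0.0771). That of Mvk was lost without WT-DMSO library 2 or 3, any WT-DTX library, KO-DMSO library 1 or 3, or KO-DTX library 3 (up to 0.201). That of Acly was lost without WT-DMSO library 2 or 3, WT-DTX library 2 or 3, any KO-DMSO library, or KO-DTX library 3 (up to 0.204), and that of Me1 without WT-DMSO library 2 or any KO-DMSO library (up to 0.15). With the 2 libraries richest in Gm23935 left out all 4 calls were lost, and with only the 6 libraries compared those of Mvk, Acly and Me1 were. Without WT-DMSO library 3, or KO-DTX library 1, 2 genes were called lower, beside 7.34% and 10.1% of all tested genes.

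After docetaxel, Srebf1 was the only gene of the 30 called between the genotypes, at 103 ± 2.77 CPM in WT-DTX and 85.1 ± 4.13 CPM in KO-DTX (SD; log2 −0.28 ± 0.08 SE; edgeR adjusted p = 0.0406). That is 0 of the 30 genes higher and 3.33% lower, against 2.5% and 3.39% of all tested genes. No gene was higher at an unadjusted p under 0.05 and 6 (20%) were lower, against 8.01% and 10% of all tested genes. Neither DESeq2 nor limma-voom called a gene higher (0 each). The groups did not overlap for 9 of the 30 genes, all with lower levels in KO-DTX, against 25.1% of all tested genes in either direction. Of all 15538 tested genes, 2054 had no overlap with lower levels in KO-DTX and 1842 with higher levels. The 9 were the mevalonate and squalene enzymes Hmgcs1, Pmvk, Mvd, Fdps and Fdft1, the last reductase Dhcr7, the regulators Srebf1 and Insig1, and Me1. Fdft1, squalene synthase, was at 200 ± 4.66 and 153 ± 7.01 CPM (log2 −0.39 ± 0.12; edgeR adjusted p = 0.0682), and Fdps, farnesyl diphosphate synthase, at 183 ± 11.6 and 139 ± 9.11 CPM (log2 −0.40 ± 0.13; edgeR adjusted p = 0.0973). The median log2 difference was −0.11 over the sterol arm, −0.14 over the regulators and −0.04 over the fatty acid arm. The call of Srebf1 was lost without any 1 of the WT-DTX, KO-DMSO or KO-DTX libraries (adjusted p up to 0.19). It was also lost without the 2 libraries richest in Gm23935, with only the 6 libraries compared, with no filter on low counts and with the GC correction (up to 0.132). Without WT-DMSO library 1, 3 genes were called lower, and without library 3, 2 genes were. Of all tested genes 3.85% and 3.53% were called lower in these fits.

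Of 9 further enzymes of sterol and isoprenoid synthesis, 4 were higher after docetaxel in wild-type cells and 0 lower, and 1 was higher in knockout-labelled cells. Of all tested genes 14.5% were higher and 13.8% lower in wild-type cells, and 9.09% and 7.0% in knockout-labelled cells. In wild-type cells Aacs, which makes acetoacetyl-CoA from ketone bodies, rose from 71.2 ± 20.1 to 114 ± 3.81 CPM (SD; log2 0.68 ± 0.15 SE; edgeR adjusted p = 0.00439), a call that held in all 23 alternatives. It was at 99.2 ± 13.2 and 103 ± 3.54 CPM in KO-DMSO and KO-DTX. The gene called in knockout-labelled cells was Nus1, a subunit of the enzyme that makes dolichol precursors, at 83.2 ± 5.97 and 103 ± 6.7 CPM (edgeR adjusted p = 0.0175), a call lost without KO-DMSO library 2 or 3 or KO-DTX library 1 (up to 0.0901).

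Of 9 genes for the transport, cleavage and turnover of SREBP and its partners, 5 were lower and 0 higher in knockout-labelled than in wild-type cells under DMSO, and 3 were lower and 0 higher after docetaxel. Of all tested genes 9.20% were lower and 6.60% higher under DMSO, and 3.39% and 2.5% after docetaxel. Sec24c, a coat protein of the vesicles that leave the endoplasmic reticulum, was at 171 ± 11.5 CPM in WT-DMSO and 131 ± 1.95 CPM in KO-DMSO (log2 −0.38 ± 0.07; edgeR adjusted p = 0.00261). After docetaxel it was at 164 ± 2.89 and 127 ± 4.54 CPM (log2 −0.37 ± 0.07; edgeR adjusted p = 0.00703). Mbtps1, the protease that makes the first cut in SREBP, fell with docetaxel from 258 ± 12.2 to 219 ± 0.28 CPM in wild-type cells (edgeR adjusted p = 0.0226). In knockout-labelled cells it fell from 210 ± 4.32 to 169 ± 7.83 CPM (edgeR adjusted p = 0.00804). Ube2g2, a ubiquitin-conjugating enzyme, rose from 27.9 ± 4.43 to 43.3 ± 0.62 CPM (edgeR adjusted p = 0.00145) and from 32.9 ± 3.6 to 43.4 ± 3.45 CPM (edgeR adjusted p = 0.0299). The calls of Sec24c, that of Mbtps1 in knockout-labelled cells and that of Ube2g2 in wild-type cells held in all 23 alternatives. That of Mbtps1 in wild-type cells was lost without WT-DMSO library 1 or any WT-DTX library (up to 0.133), and that of Ube2g2 in knockout-labelled cells without KO-DMSO library 2 or 3 or KO-DTX library 2 or 3 (up to 0.122).

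Of 12 tested genes of fatty acid supply, elongation and desaturation, 2 were higher and 2 lower after docetaxel in wild-type cells, and 1 higher and 2 lower in knockout-labelled cells, against the same shares of all tested genes (14.5% and 13.8%, 9.09% and 7.0%). Acss2, which makes acetyl-CoA from acetate, fell from 31.1 ± 1.38 to 23.9 ± 1.54 CPM in wild-type cells (edgeR adjusted p = 0.00578) and from 33.2 ± 0.6 to 26.6 ± 1.92 CPM in knockout-labelled cells (edgeR adjusted p = 0.0217). Acacb, the mitochondrial relative of Acaca, fell from 13.2 ± 5.24 to 5.92 ± 1.19 CPM (edgeR adjusted p = 0.00317) and from 13.6 ± 0.575 to 7.58 ± 1.48 CPM (edgeR adjusted p = 0.0259). Mlx, a partner of the sugar-sensing factors of the ChREBP family, rose from 13.2 ± 3.25 to 24.2 ± 0.385 CPM (edgeR adjusted p = 0.000853) and from 15.5 ± 1.51 to 22.9 ± 2.64 CPM (edgeR adjusted p = 0.0182). The wild-type calls of these 3 genes held in all 23 alternatives. In knockout-labelled cells each was lost without KO-DMSO library 2 or 3 or KO-DTX library 1, those of Acss2 and Acacb also without KO-DMSO library 1, that of Acss2 also without KO-DTX library 2, and that of Acacb also without KO-DTX library 3 (up to 0.105).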

How the data were processed

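RNA was depleted of ribosomal RNA, reverse-transcribed with random hexamers and sequenced as paired reads, per the labels' protocols. The authors deposited 1 table of raw counts of reads per gene symbol for the 12 libraries, made, per the submitters' processing notes, with STAR 2.5.1a, featureCounts 1.4.6-p5 of Subread and bcl2fastq. The sources used here give no genome build, annotation, strand setting or treatment of reads with several matches, so reads of overlapping or antisense genes and of close copies may be misassigned. Of 40757 entries, 351 exact repeats (0.907% of counts) were removed, which left 40406, and 82 that share a symbol were kept. Libraries of 1 group differed by 7.79 to 155 in chi-square per degree of freedom, so none was a copy of another. The total of 28.7 to 40.8 M counts per library puts the members well above counting noise, and the spread between libraries sets the precision (common biological coefficient of variation 13.2%).

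The members and lists were chosen with earlier results of these data known. Genes were filtered with filterByExpr, scaled by TMM and fitted with edgeR 4.0.16 (R 4.3.3) in 1 quasi-likelihood model of the 4 groups. The 5 contrasts were two-sided, adjusted by the Benjamini-Hochberg method over 15538 genes and called under 0.05. SE was taken as the size of a log2 fold change over the square root of its F. Values in every library are given for members called in a comparison of 2 groups at an absolute log2 fold change of at least 0.4 (9 genes). From each of 6 other lists (66 genes, 60 tested) up to 3 called genes per comparison with a mean of at least 5 CPM could be named. The largest changes came first. Promoters were those of up to 4 members with the smallest docetaxel adjusted p, and Hmgcs1 was an exception. Lengths came from GENCODE M21 on GRCm38, and log2 CPM used a prior count of 2. The test was checked on simulated counts. Alternatives were RLE and upper-quartile scaling, DESeq2 1.42.0, limma-voom (limma 3.58.1), no filter, at least 1 CPM in 3 libraries, only the 6 libraries compared, the replicate number as a block, WT-DMSO library 2 and KO-DTX library 3 (richest in Gm23935) left out, repeated entries kept, each library left out, and, chosen after seeing the data, a GC correction (lowess span 0.3). Figures were drawn with matplotlib 3.10.9.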

Additional observations from a re-analysis of the deposited data

How the results depend on the processing

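Over the 19 calls of members, 312 of 437 alternative fits kept the call, 125 lost it and 0 reversed its direction, and 3 calls were kept in every fit (Hsd17b7 and Fasn in wild-type cells and Scd2 in knockout-labelled cells, all for docetaxel). A further 106 calls were gained over 41 pairs of gene and comparison. Counts of members called are given below against 9 higher and 2 lower for docetaxel in wild-type cells, 0 and 3 in knockout-labelled cells, 3 and 1 for genotype under DMSO, 0 and 1 for genotype after docetaxel, and 0 and 0 for the interaction. With no filter on low counts they were 14 and 1, 2 and 5, 9 and 2, 0 and 4, and 0 and 6 in that order. With only the 6 libraries compared they were 4 and 1, 2 and 5, 1 and 0, and 0 and 2. Of all genes in the fit with no filter, the shares called higher and lower were 8.62% and 7.53%, 5.95% and 4.81%, 4.64% and 5.76%, 1.77% and 2.4%, and 0.906% and 0.578%. With only the 6 libraries the shares were 11.5% and 10.7%, 10.4% and 8.32%, 3.92% and 7.89%, and 2.46% and 3.16%. Upper-quartile scaling gave 5 higher for docetaxel in wild-type cells, beside 13.7% of all tested genes. DESeq2 gave 1 higher for docetaxel in knockout-labelled cells, 6 higher and 2 lower for genotype under DMSO and 2 lower after docetaxel. Of all 40406 entries, those with low or no counts included, it called 4.27% higher, 3.17% higher and 4.25% lower, and 1.73% lower in the same order. Those were 1725, 1279, 1717 and 701 genes. Only 28365 entries had any count, so these shares cannot be compared with those of the filtered fits. Limma-voom gave 6 higher for genotype under DMSO, at least 1 CPM in 3 libraries gave 1 higher for docetaxel in knockout-labelled cells, and the GC correction gave 2 lower for genotype under DMSO. Of all tested genes 6.56%, 11.3% and 11.4% were called in the same directions in these fits. Without the libraries richest in Gm23935 the counts were 3 and 0 for docetaxel in wild-type cells, 0 and 0 for genotype under DMSO and 0 lower for genotype after docetaxel. The shares of all tested genes were then 9.81% and 9.76%, 2.78% and 5.19%, and 1.84% lower. Leaving out each library in turn gave 2 to 16 higher and 0 to 2 lower for docetaxel in wild-type cells. In knockout-labelled cells it gave 0 to 3 and 1 to 5, and for genotype under DMSO 0 to 13 and 0 to 2. It gave 0 to 3 lower for genotype after docetaxel and 0 to 7 lower for the interaction. Of all tested genes 9.91% to 15.3% were then higher and 8.92% to 15.1% lower for docetaxel in wild-type cells. In knockout-labelled cells the shares were 5.01% to 10% and 3.2% to 8.06%. For genotype under DMSO they were 2.88% to 9.35% and 5.02% to 11.1%. The lower shares were 1.55% to 3.94% for genotype after docetaxel and 0% to 1.38% for the interaction. Apart from the smaller number of samples or the other set of genes tested that these settings bring, the cause was not tested. Replicate numbers did not pair the libraries throughout. Of 18 same-numbered pairs, 8 had correlated deviations from the group means above 0.1 (r from −0.64 to 0.677 across 10412 genes, which are not independent). Of 36 matches, 15 were best with the own number. For the members the number did go with level: library 1 had the highest sterol sum and the highest fatty acid sum in all 4 groups. Whether same-numbered libraries were handled together was not tested. With the replicate number as a block, 6 members were higher for genotype under DMSO and 1 was higher for docetaxel in knockout-labelled cells, beside 6.93% and 9.63% of all tested genes. Other counts stayed within 1.5 times. After docetaxel the block kept the count of 1 lower for genotype, but Srebf1 lost its call (adjusted p = 0.0541) and Fdft1 gained one (0.0493). With 3 libraries a group the number of libraries limits the precision.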

Other observations

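Dgat2, which makes triglyceride, was at 3.13 ± 0.699 CPM in WT-DMSO and 7.22 ± 0.879 CPM in WT-DTX (SD, n = 3; log2 1.21 ± 0.17 SE; edgeR adjusted p = 0.000212). In knockout-labelled cells it was at 3.89 ± 0.272 and 11.3 ± 0.993 CPM (log2 1.53 ± 0.16; edgeR adjusted p = 2.42e-05), and both calls held in all 23 alternatives. Of 13 tested genes of fatty acid activation and glycerolipid synthesis, 2 were higher and 3 lower in wild-type cells and 3 higher and 2 lower in knockout-labelled cells. Of all tested genes, 14.5% were higher and 13.8% lower in wild-type cells, and 9.09% and 7.0% in knockout-labelled cells. Against the same shares, of 7 tested genes of fatty acid oxidation, 0 were higher and 3 lower in wild-type cells, and 0 higher and 1 lower in knockout-labelled cells. Cpt1a, which commits fatty acids to oxidation in mitochondria, was at 71.9 ± 9.3 and 45.6 ± 2.27 CPM in WT-DMSO and WT-DTX (log2 −0.66 ± 0.10; edgeR adjusted p = 0.000415). It was at 51 ± 3.76 CPM in KO-DMSO, below WT-DMSO (log2 −0.49 ± 0.10; edgeR adjusted p = 0.0042), and both calls of Cpt1a held in all 23 alternatives. Tecr, a reductase of fatty acid elongation, was lower in knockout-labelled cells under DMSO, at 217 ± 6.32 against 277 ± 11.4 CPM (edgeR adjusted p = 0.00359), and after docetaxel, at 190 ± 7.42 against 248 ± 6.7 CPM (edgeR adjusted p = 0.00433). Of 10 genes of sterol sensing by LXR, efflux and storage, 2 were higher and 0 lower after docetaxel in each genotype, again beside 14.5% and 9.09% of all tested genes called higher.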
